A study of Homo sapiens with 27 samples.

Results

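The TNF superfamily was described across 3 neuroendocrine tumour cell lines that carried MAML3 constructs. Its members were taken by gene symbol: every row of the gene table named TNFSF or TNFRSF followed by a number, together with TNF, LTB, FAS and CD40, which gave 32 genes of 23230. Of these, 12 encode ligands, 5 death domain receptors, 3 decoy receptors and 12 receptors that bind TRAF adaptors directly. SK-N-SH cells come from a neuroblastoma, whereas the lines QGP-1 and BON-1 were derived from pancreatic neuroendocrine tumours. Each line was transfected by lipofection with the empty pCMV6-AC plasmid (vector), the same plasmid with full-length MAML3 (FL), or with MAML3 cDNA without exon 1 (dEx1); both MAML3 proteins ended in a V5 tag. RNA was taken on day 3, from 3 biological replicates per group, so that 9 groups and 27 libraries were compared. Transfection was transient, and the share of cells that took up a plasmid is not given in the sources used here.

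Ligands of this superfamily are mostly trimeric, membrane-bound or shed proteins, and each binds 1 or a few receptors on a neighbouring cell. Death domain receptors can recruit FADD and caspases and start apoptosis, the other signalling receptors recruit TRAF adaptors and activate NF-kB and MAP kinases, and decoy receptors bind ligand without passing on a signal. MAML proteins are coactivators that join the Notch intracellular domain and RBPJ on DNA through their amino-terminal end, and MAML3 fusions that lack this end occur in neuroendocrine tumours.

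Levels are given as CPM, counts relative to a library's scaled total, on 1 scale for all libraries, and a fold change is the log2 difference fitted by edgeR's quasi-likelihood F test within a line, with its SE. A gene passed at an adjusted p under 0.05 over all genes tested. Total estimated counts ran from 73026244 in a BON-1 vector library to 120254457 in a QGP-1 FL library. MAML3 itself checked the labels of vector against construct. It was at 16.9 to 93.7 CPM in the vector libraries and at 2231 to 15840 CPM in every library with a construct. This range pools both MAML3 forms and all lines, and a count per gene cannot tell FL from dEx1. In SK-N-SH, the libraries numbered 3 stood apart from the other libraries of their groups on the second principal component (19.2% of the variance). On the first component (40.7%), vector replicate 3 lay at 40.0, near the dEx1 libraries (43.5 to 84.7). Vector replicates 1 and 2 lay at -28.3 and -28.5, and the FL libraries from -70.9 to -37.9. BON-1 vector replicate 1 lay at -107 on the first component, against -0.115 to 27.9 for the other 8 libraries. The QGP-1 libraries formed 2 clusters that crossed the groups: replicate 1 of every group, FL replicate 2 and dEx1 replicate 2 in cluster 1, and vector replicate 2 with all 3 libraries numbered 3 in cluster 2. Markers checked the cell type labels: neuroendocrine genes (CHGA, CHGB and others) summed to 2417 CPM or more in every pancreatic library and to 401 to 1522 CPM in SK-N-SH. SK-N-SH held mesenchymal markers (VIM, FN1 and others) at 8156 to 11158 CPM.

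With the empty vector, members differed widely in level between the lines. Fits of the 9 vector libraries called 22 of 27 tested members between BON-1 and SK-N-SH (54.5% of all genes tested), of which 9 were higher in BON-1 (27.7% of all genes) and 13 lower (26.8%). Between QGP-1 and SK-N-SH, 18 of 27 were called (55% of all genes), 6 higher in QGP-1 (28.1%) and 12 lower (26.9%). Between QGP-1 and BON-1, 19 of 27 were called (43.6%), 4 higher in QGP-1 (21%) and 15 lower (22.6%). These comparisons share their vector libraries.

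Among the ligands, TNFSF4, the OX40 ligand, marked SK-N-SH. Its vector libraries held 285, 303 and 430 CPM, against 1.42, 0.638 and 0.53 CPM in BON-1 and 0.0941, 0.23 and 0.275 CPM in QGP-1. The SK-N-SH libraries lay far above all others, and the fitted difference was -8.64 (SE 0.53, adjusted p = 2.87e-06) for BON-1 and -10.69 (SE 0.58, adjusted p = 1.55e-06) for QGP-1. TNFSF18, the GITR ligand and a neighbour of TNFSF4 on chromosome 1, followed with 44.1, 59.8 and 100.5 CPM in SK-N-SH vector libraries. It was at 0 to 0.177 CPM in BON-1 vector libraries and at 0 in the 3 QGP-1 vector libraries, so SK-N-SH was at least 424-fold higher than QGP-1. This bound uses a floor of 15 units per library, taken as 3 sequenced fragments, an assumption that covers counting error only.

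TNFSF11 (RANKL, the ligand that drives osteoclast formation) had counts in BON-1 alone. It read 8.1, 4.44 and 11.3 CPM in the BON-1 vector libraries and 0 in all 18 libraries of the other lines. BON-1 was at least 47.6-fold higher than SK-N-SH and at least 49.5-fold higher than QGP-1. All 9 BON-1 libraries held it, from 4.44 to 12.9 CPM. Per kilobase of exon it stood at 2.91 CPM per kb in the BON-1 vector libraries, below TNFSF12 at 4.34 CPM per kb.

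QGP-1 carried TNFSF15 (TL1A, a ligand of DR3 and of the decoy DcR3), TNFSF12 (TWEAK, the ligand of Fn14) and TNFSF9 (the 4-1BB ligand) at the highest levels of the 3 lines. TNFSF15 read 98.1, 70.2 and 70.1 CPM in QGP-1 vector libraries, 19, 17.3 and 12.8 CPM in SK-N-SH, and 0.251, 0 and 0.212 CPM in BON-1. The 3 lines did not overlap, and QGP-1 exceeded SK-N-SH by 2.31 (SE 0.56, adjusted p = 0.00652). TNFSF12 read 62.9, 67.4 and 64.4 CPM in QGP-1, above SK-N-SH at 31, 30.2 and 42.7 CPM and BON-1 at 24.9, 15.6 and 18.9 CPM. The order was the same for TNFSF9, with means of 11.6 ± 3.3 CPM in QGP-1, 3.61 ± 0.261 CPM in SK-N-SH and 1.85 ± 0.64 CPM in BON-1 (SD, n = 3). The call of TNFSF9 between BON-1 and SK-N-SH (adjusted p = 0.0406) was lost without any 1 of 7 libraries, BON-1 vector replicate 1 among them, which had the lowest TNFSF9 of that group. TNFSF12 overlaps a read-through transcript, so its reads may be shared.

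TNFSF10 (TRAIL, which binds the TRAIL receptors and can start apoptosis) had its highest vector levels in SK-N-SH and QGP-1. Vector libraries of SK-N-SH held 24.7, 17 and 14.9 CPM, those of QGP-1 9.66, 18.4 and 18.6 CPM, and those of BON-1 3.63, 1.88 and 5.37 CPM. SK-N-SH and QGP-1 overlapped (difference -0.25, 95% interval -1.18 to 0.68), and BON-1 lay below SK-N-SH (-2.39, SE 0.43, adjusted p = 0.00145). The remaining ligands were low in all vector libraries: TNF reached 0.507 CPM, LTB 2.2 CPM, TNFSF8 0.827 CPM, TNFSF13B 2.65 CPM and TNFSF14 0.0945 CPM.

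Among death domain receptors, FAS, the receptor of Fas ligand, was far higher in SK-N-SH. Its vector libraries held 73.7, 65.8 and 58.8 CPM, against 0.354 to 0.789 CPM in BON-1 and 0.314 to 0.458 CPM in QGP-1. The difference was -6.84 (SE 0.36, adjusted p = 1.35e-06) for BON-1 and -7.45 (SE 0.37, adjusted p = 1.09e-06) for QGP-1. TNFRSF10B, the second TRAIL receptor, fell in steps over the lines, with 469, 442 and 332 CPM in SK-N-SH, 198, 93.1 and 106 CPM in BON-1 and 16.3, 9.5 and 9.88 CPM in QGP-1. No line overlapped another. TNFRSF10A, the other death-inducing TRAIL receptor, was highest in BON-1 (59.3 ± 12.4 CPM) and did not differ beyond its spread between SK-N-SH (20.2 ± 2.74 CPM) and QGP-1 (17.9 ± 1.32 CPM; SD, n = 3). TNFRSF1A, the broadly expressed TNF receptor, averaged 105 CPM in SK-N-SH, 102 CPM in BON-1 and 41.8 CPM in QGP-1. TNFRSF21 (DR6) ran the other way from FAS: 10.1, 10.6 and 3.78 CPM in SK-N-SH, 182, 169 and 369 CPM in BON-1, and 94, 74.4 and 77.4 CPM in QGP-1. Its call between QGP-1 and BON-1 (adjusted p = 0.0174) was lost without BON-1 vector replicate 3, QGP-1 vector replicate 2 or QGP-1 vector replicate 3.

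Of the 3 decoy receptors, TNFRSF11B and TNFRSF10D were most abundant in BON-1. TNFRSF11B (osteoprotegerin, the secreted decoy for RANKL) read 688, 527 and 716 CPM in BON-1 vector libraries, 52.3, 109 and 107 CPM in QGP-1 and 16.7, 16.5 and 22 CPM in SK-N-SH. BON-1 exceeded SK-N-SH by 5.12 (SE 0.33, adjusted p = 3.92e-06), and per kilobase of exon TNFRSF11B was the highest member in BON-1 (256 CPM per kb). Thus BON-1 held both the ligand TNFSF11 and its decoy, whereas the receptor TNFRSF11A (RANK) was present in all 3 lines, with means of 7.92 CPM in SK-N-SH, 16 CPM in BON-1 and 12 CPM in QGP-1. TNFRSF10D, a TRAIL decoy receptor, read 71.6, 26 and 34.7 CPM in BON-1 and at most 0.0814 CPM in the vector libraries of the other lines. Its highest value lay in BON-1 vector replicate 1, and the call against SK-N-SH held without that library. TNFRSF6B (DcR3), which overlaps the gene RTEL1 and may share its reads, lay between 31.3 and 64.1 CPM in all vector libraries, higher in BON-1 than in SK-N-SH by 0.71 (SE 0.19, adjusted p = 0.0122). QGP-1 and BON-1 overlapped for TNFRSF6B (difference -0.43, SE 0.19, adjusted p = 0.107).

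Of the TRAF-binding receptors, TNFRSF12A (Fn14, the receptor of TWEAK) was the highest member per kilobase in SK-N-SH (340 CPM per kb). It read 602, 612 and 625 CPM there, 120, 85.9 and 236 CPM in BON-1 and 14.6, 9.33 and 10.4 CPM in QGP-1. The lines did not overlap, and the order was the reverse of that of its ligand TNFSF12 between SK-N-SH and QGP-1. TNFRSF9 (4-1BB) averaged 12.1 CPM in SK-N-SH and 0.892 CPM in BON-1, and was at 0 in the 3 QGP-1 vector libraries, where SK-N-SH was at least 75.1-fold higher. TNFRSF14 (HVEM, a receptor of LIGHT) read 69.9, 29 and 30.3 CPM in BON-1 against at most 0.62 CPM in the vector libraries of the other lines. TNFRSF19 (TROY) was at 73.1 ± 11.1 CPM in BON-1 and 67.8 ± 19.9 CPM in QGP-1, which overlapped, and at 11.3 ± 1.42 CPM in SK-N-SH (SD, n = 3). TNFRSF13B was at 0 in all 27 libraries, TNFRSF17 was above 0 in 1, CD40 in 4 and TNFRSF4 in 8, the highest of them at 0.284 CPM.

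**Figure D1:**
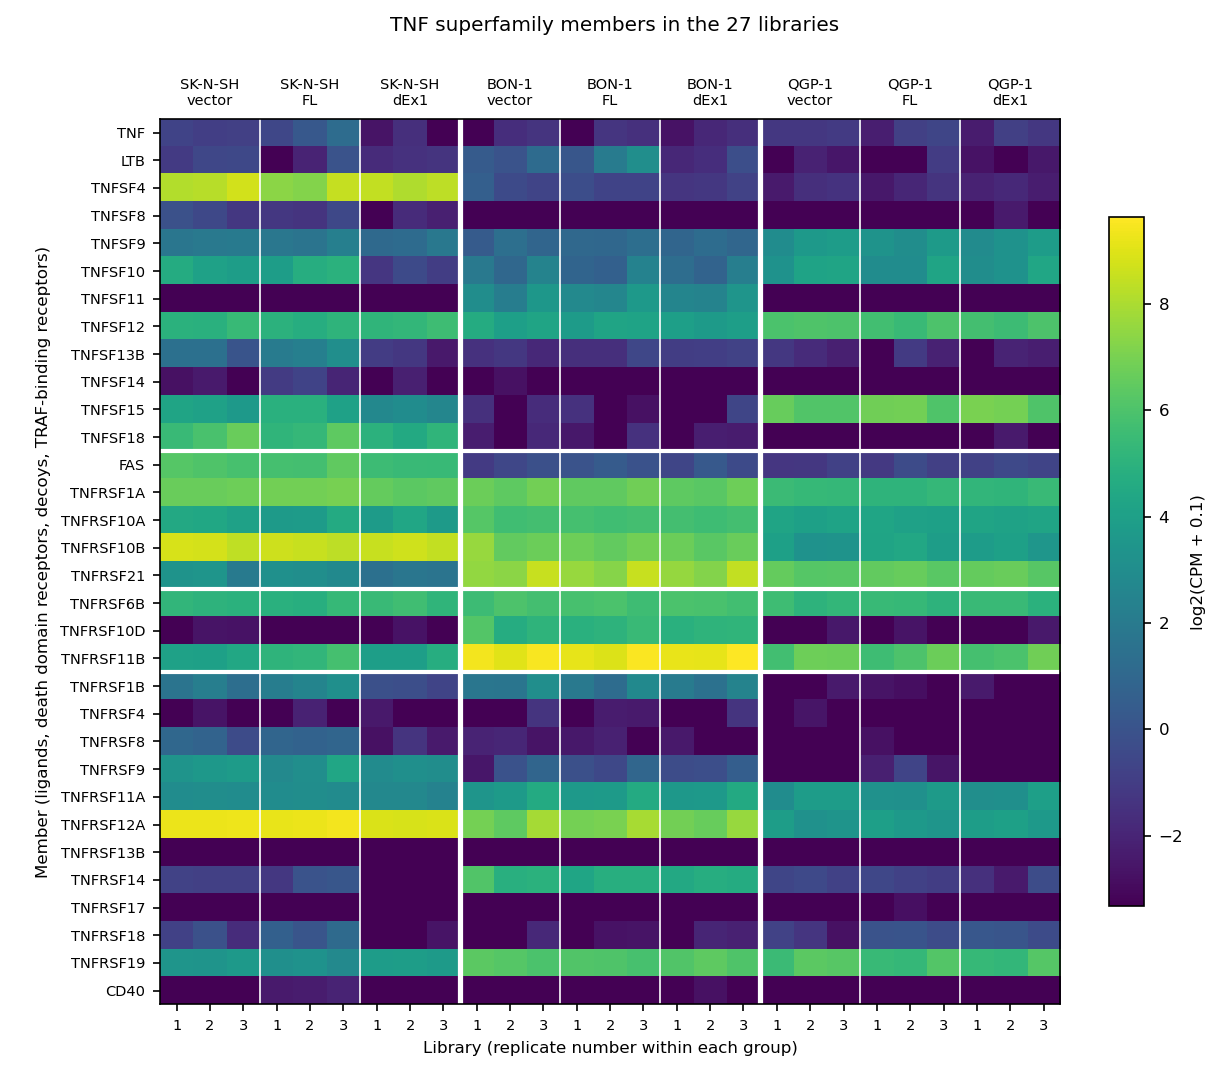
Each tile is log2(CPM + 0.1) of 1 member (rows, grouped as ligands, death domain receptors, decoys and TRAF-binding receptors) in 1 of the 27 libraries (columns, by line, group and replicate number). TNFSF4, TNFSF18 and FAS are bright in SK-N-SH only, TNFSF11 and TNFRSF10D in BON-1 only, and TNFSF10 is darkest in the 3 SK-N-SH dEx1 libraries. TNFRSF14 is bright in BON-1 only and dark in all groups of the other lines, reaching 0 CPM in the same 3 dEx1 libraries.

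In SK-N-SH, no tested member passed between full-length MAML3 and vector in edgeR's fit of the 9 libraries, and TNFRSF11B passed under 4 of 16 alternatives. The comparison of FL with vector called 0 of 26 members (1.74% of all genes), 5 had an unadjusted p under 0.05, and their median log2 fold change was 0.01 against -0.01 for all genes tested. The other 6 members were too low to test, none above 0.143 CPM in any SK-N-SH library: CD40, TNFRSF10D, TNFRSF13B, TNFRSF17, TNFRSF4 and TNFSF11. The member with the smallest adjusted p was TNFRSF11B, the RANKL decoy, at 16.7, 16.5 and 22 CPM with vector and 33.8, 36.9 and 56.7 CPM with FL. Every FL library lay above every vector library, with a fold change of 1.21 (SE 0.28, adjusted p = 0.0739). It passed with DESeq2 (adjusted p = 0.00141), with the replicate number as a block (1.18, adjusted p = 0.00434), without the libraries numbered 3 (1.09, adjusted p = 0.00309) and with a term for them (adjusted p = 0.00117), and over 16 alternatives the adjusted p ran from 0.00117 to 0.205. TNFSF4 read 285, 303 and 430 CPM with vector and 165, 149 and 366 CPM with FL. The groups overlapped through FL replicate 3, the fold change was -0.58 (SE 0.33, adjusted p = 0.447), and without the libraries numbered 3 it was -0.91 (adjusted p = 0.0142; 0.0142 to 0.775 over the 16 alternatives). TNFSF15 read 19, 17.3 and 12.8 CPM with vector and 29.4, 29.5 and 17.1 CPM with FL, again overlapping through FL replicate 3. It passed as higher with FL without the libraries numbered 3 and with a term for them, and under no other alternative.

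With MAML3 that lacked exon 1, a set of ligands and receptors was lower in SK-N-SH. Against vector, 7 of 26 members were called, all lower; 4.47% of all genes were called in either direction and 3.64% lower. The 7 were 3 ligands (TNFSF10, TNFSF13B and TNFSF15) and 4 TRAF-binding receptors (TNFRSF1B, TNFRSF8, TNFRSF12A and TNFRSF14). None of the 5 death domain receptors or of the 2 tested decoys passed in edgeR's fit. DESeq2 called 3 of these receptors lower: TNFRSF21 (adjusted p = 0.00160), TNFRSF1A (adjusted p = 0.0219) and FAS (adjusted p = 0.0382). With the replicate number as a block TNFRSF21 passed (-1.34, adjusted p = 0.0343), and without the libraries numbered 3 TNFRSF21 and FAS passed lower and the decoy TNFRSF6B higher (0.40, adjusted p = 0.0402). The median over the tested members was -0.57, against 0.01 over all genes tested. The count rested on single libraries: it was 2 without dEx1 replicate 1, 3 without vector replicate 1 or vector replicate 2, and 4 without FL replicate 1, FL replicate 2 or dEx1 replicate 3. It was 5 without dEx1 replicate 2, 8 without FL replicate 3 and 9 without vector replicate 3.

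TNFSF10, the TRAIL gene (chr3:172223298-172241265, hg19, minus strand), fell furthest among the members with counts in every group. Its 3 vector libraries held 24.7, 17 and 14.9 CPM, the FL libraries 14.5, 27 and 31.3 CPM, and the dEx1 libraries 0.312, 0.644 and 0.409 CPM. Vector and FL overlapped, and every dEx1 library lay below 1 CPM. The fold change of dEx1 against vector was -5.36 (SE 0.41, adjusted p = 0.00205), and the call held under all 16 alternatives, with adjusted p up to 0.0209.

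TNFRSF14, the HVEM gene (chr1:2487078-2496821), was low in SK-N-SH to begin with. It read 0.496, 0.449 and 0.451 CPM with vector and 0.333, 0.886 and 0.987 CPM with FL, and 0 in all 3 dEx1 libraries. The level with dEx1 was thus at least 2.71-fold lower than with vector (adjusted p = 0.0117), and this call also held under all 16 alternatives.

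TNFRSF1B, the inducible second TNF receptor (chr1:12227048-12269285), read 3.1, 4.55 and 2.49 CPM with vector, 4.35, 5.55 and 8.56 CPM with FL, and 0.792, 0.773 and 0.538 CPM with dEx1. The dEx1 libraries lay below all others, with a fold change of -2.26 against vector (SE 0.34, adjusted p = 0.0130), lost only without dEx1 replicate 1 (adjusted p = 0.0573). TNFSF15, the TL1A gene (chr9:117546932-117568319), read 19, 17.3 and 12.8 CPM with vector, 29.4, 29.5 and 17.1 CPM with FL and 6.42, 7.79 and 5.96 CPM with dEx1. Its fold change was -1.28 (SE 0.24, adjusted p = 0.0222), and the call was lost without dEx1 replicate 1, dEx1 replicate 3, vector replicate 1 or vector replicate 2. Both genes showed no overlap between dEx1 and vector.

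TNFSF13B (BAFF, a B cell survival factor; chr13:108903588-108960832) read 2.65, 2.62 and 0.926 CPM with vector, 4.07, 4.75 and 8.39 CPM with FL and 0.396, 0.333 and 0.0818 CPM with dEx1. Its fold change of -2.92 (SE 0.62) had an adjusted p of 0.0366. TNFRSF8 (CD30, chr1:12123360-12204264) read 1.9, 1.67 and 0.677 CPM with vector, 1.8, 1.59 and 1.8 CPM with FL, and 0.048, 0.29 and 0.0935 CPM with dEx1. Its fold change was -3.27 (SE 0.66, adjusted p = 0.0299). In both genes vector replicate 3 was the lowest vector library and still lay above every dEx1 library.

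TNFRSF12A (chr16:3068446-3072384), the most abundant of the 7, moved least: 602, 612 and 625 CPM with vector, 600, 609 and 671 CPM with FL and 472, 465 and 483 CPM with dEx1. Vector and FL overlapped, and the 3 dEx1 libraries lay close together below both. A fold change of -0.37 against vector (SE 0.08) passed at an adjusted p of 0.0365. The calls of TNFRSF12A and TNFSF13B were each lost without any 1 of the same 7 libraries (dEx1 replicates 1, 2 and 3, FL replicates 1 and 2, vector replicates 1 and 2), with adjusted p up to 0.131 and 0.130. That of TNFRSF8 was lost without dEx1 replicate 1 or 3, FL replicate 1 or 2, or vector replicate 1 or 2, with adjusted p up to 0.113.

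**Figure D2:**
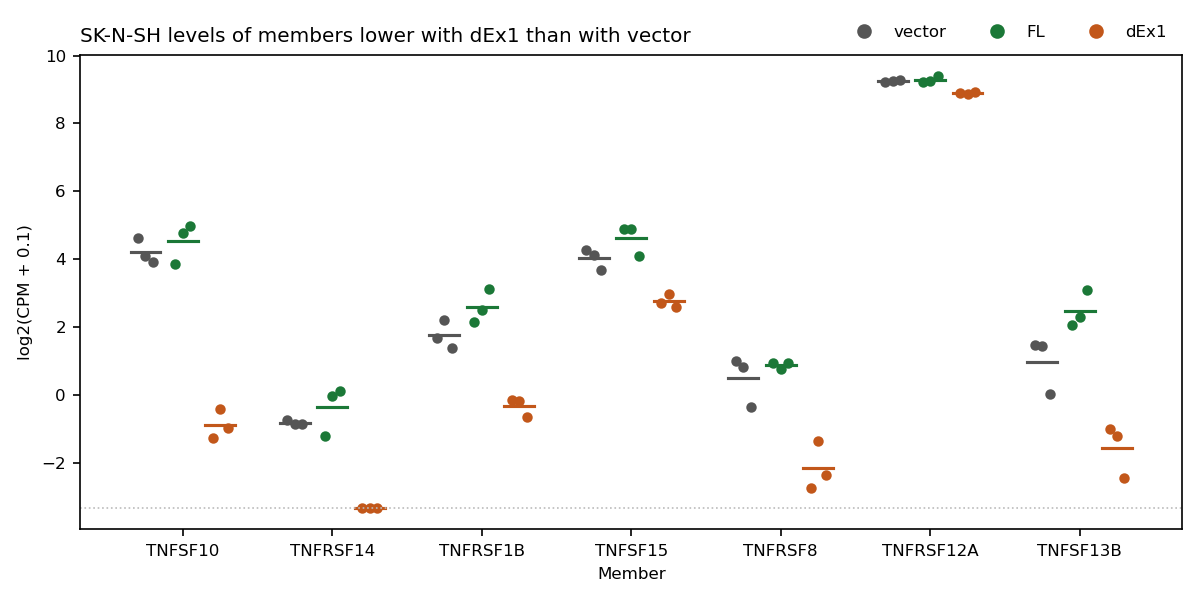
Points are single SK-N-SH libraries, 3 per group, for the 7 members lower with dEx1 than with vector, as log2(CPM + 0.1), and bars are group means of these log values. The dotted line marks 0 CPM, where the 3 dEx1 libraries of TNFRSF14 lie. In each gene the 3 dEx1 libraries sit below the 3 vector and the 3 FL libraries.

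Promoter sequences were compared because these members moved together. RefSeq windows (GRCh38.p14) from 250 bases before to 50 after a start site were found for 22 of the 32 members, 29 windows in all. Both strands were searched for GAAANNGAAA, the core of interferon-stimulated response elements, for TGGGAA, the core bound by RBPJ, and for GGGANNTTCC, an NF-kB type site. GAAANNGAAA was in windows of 5 genes (7 of 29 windows; 3.57% of 35116 promoters), TGGGAA in windows of 6 genes (7 of 29; 24% of all) and GGGANNTTCC in windows of 2 genes (3 of 29; 1.61% of all). Among the genes lower with dEx1, GAAANNGAAA stood at -187 in TNFSF10, at -10 in TNFRSF1B and at -71 from 1 of the 2 starts of TNFSF13B. The window of TNFRSF14 held TGGGAA at -202, none of the 3 motifs stood in the windows of TNFSF15 and TNFRSF8, and TNFRSF12A had no entry. GAAANNGAAA also stood in windows of TNFSF9 and TNFSF14, which did not pass between dEx1 and vector. Below are the 250 bases before the start, 5′ to 3′ on the gene's strand, for TNFSF10 (chr3:172523431-172523680), TNFRSF1B (chr1:12166741-12166990), TNFSF15 (chr9:114792531-114792780) and TNFRSF8 (chr1:12063053-12063302), and 30 bases around the match for TNFSF13B (chr13:108269637-108269666), with the match in capitals. Such a match is a description of letters, and binding was not measured.
TNFSF10: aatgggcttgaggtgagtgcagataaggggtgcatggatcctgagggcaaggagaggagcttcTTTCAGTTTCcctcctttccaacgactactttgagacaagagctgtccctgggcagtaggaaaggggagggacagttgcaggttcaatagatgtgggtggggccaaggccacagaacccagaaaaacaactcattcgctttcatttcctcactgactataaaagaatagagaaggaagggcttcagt
TNFRSF1B: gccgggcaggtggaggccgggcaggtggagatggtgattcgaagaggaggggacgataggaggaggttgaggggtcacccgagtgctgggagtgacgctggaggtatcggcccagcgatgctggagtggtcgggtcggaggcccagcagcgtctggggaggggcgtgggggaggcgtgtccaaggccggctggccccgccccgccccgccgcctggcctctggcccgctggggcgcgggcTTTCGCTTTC
TNFSF13B: tacaaaaactGAAAGTGAAAtgaggaagac
TNFSF15: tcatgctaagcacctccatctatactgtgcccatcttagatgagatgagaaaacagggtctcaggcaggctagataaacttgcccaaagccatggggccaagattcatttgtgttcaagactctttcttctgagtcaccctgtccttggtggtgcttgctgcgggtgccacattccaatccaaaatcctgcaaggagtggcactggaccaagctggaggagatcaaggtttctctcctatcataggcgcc
TNFRSF8: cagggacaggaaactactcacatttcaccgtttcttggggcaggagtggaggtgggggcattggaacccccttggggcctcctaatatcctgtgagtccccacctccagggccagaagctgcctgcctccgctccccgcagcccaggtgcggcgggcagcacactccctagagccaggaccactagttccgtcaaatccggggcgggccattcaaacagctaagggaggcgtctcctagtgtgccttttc

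Set directly against each other in SK-N-SH, the 2 MAML3 forms differed in 13 of 26 members, 12 lower and 1 higher with dEx1. Over all genes tested, 22% were called, 11.5% lower and 10.5% higher, and the members' median was -0.69 against 0.00. This comparison shares its dEx1 libraries with the one above. TNFSF10 had a fold change of -5.72 (SE 0.42, adjusted p = 0.000261), TNFSF13B had -4.40 (SE 0.65, adjusted p = 0.00286) and TNFSF15 -1.91 (SE 0.24, adjusted p = 0.00160). TNFRSF1B had -3.13 (SE 0.35, adjusted p = 0.00123), TNFRSF8 -3.56 (SE 0.66, adjusted p = 0.00694) and TNFRSF12A -0.40 (SE 0.08, adjusted p = 0.00869). The size for TNFRSF8 is again not firm, as its dEx1 mean lay under the floor. TNFRSF14 was at least 4.27-fold lower than with FL (adjusted p = 0.00216).

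Another 5 members were lower with dEx1 than with FL. TNF, the inflammatory cytokine that names the family, read 0.576, 1.07 and 2.29 CPM with FL and 0.06, 0.236 and 0 CPM with dEx1 (-3.70, SE 1.05, adjusted p = 0.0371). Its vector libraries held 0.507, 0.437 and 0.451 CPM, and the call was lost without any 1 of 6 libraries (dEx1 replicate 1, FL replicates 1, 2 and 3, vector replicates 1 and 2). TNFRSF18 (GITR, the receptor of TNFSF18) read 1.45, 0.976 and 2.15 CPM with FL, 0.476, 0.827 and 0.214 CPM with vector, and 0, 0 and 0.0584 CPM with dEx1. It passed against FL (adjusted p = 0.00622) and missed against vector (adjusted p = 0.0509; 0.000117 to 0.162 over 16 alternatives).

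TNFRSF1A, a death domain receptor, moved little and tightly: 117, 115 and 125 CPM with FL against 94.4, 83.7 and 89.7 CPM with dEx1 (-0.41, SE 0.08, adjusted p = 0.0101). TNFRSF21 read 9, 8.37 and 6.93 CPM with FL against 2.6, 3.35 and 3.03 CPM with dEx1 (-1.43, SE 0.35, adjusted p = 0.0203). Vector replicates 1 and 2 held 10.1 and 10.6 CPM of TNFRSF21, near FL, and vector replicate 3 held 3.78 CPM, near dEx1; the fold change against vector was -1.44 (SE 0.35, adjusted p = 0.0539; 0.00160 to 0.200 over 16 alternatives). The call of TNFRSF21 between the forms was lost without dEx1 replicate 1 or 3 or FL replicate 1 or 2. TNFRSF11B read 15.1, 15.2 and 26.8 CPM with dEx1, against 33.8, 36.9 and 56.7 CPM with FL (-1.15, SE 0.28, adjusted p = 0.0206), a call lost without dEx1 replicate 1 or 2 or FL replicate 3.

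TNFRSF19 (TROY) is a receptor that binds TRAFs and is known from neural progenitors. It was the single member higher with dEx1 than with FL in edgeR's fit of the 9 libraries. It read 14, 14.5 and 13.4 CPM with dEx1, 8.63, 9.51 and 6.74 CPM with FL and 10.8, 10.2 and 12.9 CPM with vector. The fold change between the forms was 0.76 (SE 0.15, adjusted p = 0.00985), and the vector libraries lay between the other groups without overlapping either. Without the libraries numbered 3, TNFRSF19 also passed as higher with dEx1 than with vector. TNFSF12 passed as higher with dEx1 than with FL under the replicate block and with a term for the libraries numbered 3. The abundant SK-N-SH members TNFSF4, TNFRSF10B and TNFRSF6B passed in none of the 3 comparisons in edgeR's fit, and neither did TNFSF18 or FAS. With the replicate number as a block, TNFSF18 was lower with dEx1 than with vector (-1.10, adjusted p = 0.0253) and than with FL (-0.70, adjusted p = 0.0465), and DESeq2 called it against vector (adjusted p = 0.0244). Without the libraries numbered 3, TNFSF4 (0.97, adjusted p = 0.00312) and TNFRSF6B (0.68, adjusted p = 0.00563) were higher with dEx1 than with FL, as they were without FL replicate 3 alone. FAS read 46.8, 43.2 and 42.8 CPM with dEx1, below every vector (58.8 to 73.7 CPM) and FL library (53.6 to 87.5 CPM), with adjusted p of 0.121 against vector and 0.0614 against FL in edgeR, and 0.0382 and 0.0218 in DESeq2.

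**Figure D3:**
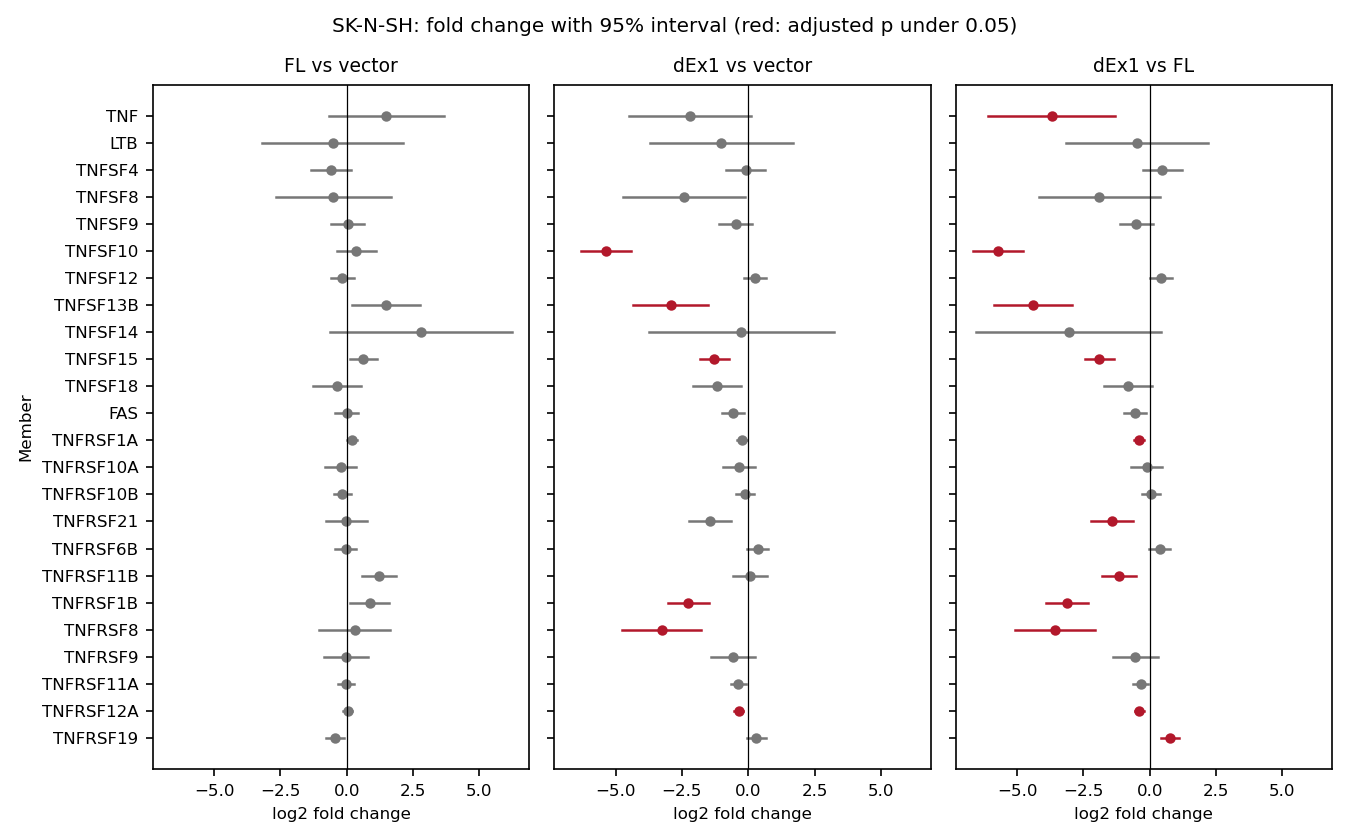
Points are log2 fold changes and lines 95% intervals for 24 members in SK-N-SH, in the 3 comparisons FL against vector, dEx1 against vector and dEx1 against FL, with red for an adjusted p under 0.05. TNFRSF14 and TNFRSF18 are left out because dEx1 libraries at 0 leave their fitted values without meaning. No point is red on the left, and in the right panel TNFRSF19 is the only red point above 0.

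Other genes of the pathway were read from fixed lists. Of 31 adaptors, caspases and NF-kB regulators in the table, 30 were tested in SK-N-SH. With dEx1 against vector, 9 were lower and 0 higher, against 3.64% of all genes lower, with a median of -0.33 against 0.01 over all genes. By adjusted p the first were NFKB2, an NF-kB subunit (-0.75, SE 0.11, adjusted p = 0.0130), NFKBIA, the inhibitor IkB-alpha that NF-kB itself induces (-0.81, SE 0.13, adjusted p = 0.0151), the kinase RIPK1 (-0.48, SE 0.08, adjusted p = 0.0202) and TNFAIP3, the feedback inhibitor A20 (-2.98, SE 0.56, adjusted p = 0.0229). With FL against vector, TNIP1, a partner of A20, rose by 1.06 (SE 0.13, adjusted p = 0.0103) and NFKBIA by 0.75 (SE 0.13, adjusted p = 0.0327), and MAP3K14, the kinase NIK, had -0.77 (SE 0.13, adjusted p = 0.0284). NFKBIA read 153 to 188 CPM with vector, 273 to 328 CPM with FL and 84.5 to 113 CPM with dEx1, with no overlap between groups. Between dEx1 and FL, 13 were lower and 1, MAP3K14, was higher, against 11.5% and 10.5% of all genes. Of 10 superfamily genes under other symbols, 5 were tested in SK-N-SH and 1 passed, the neurotrophin receptor NGFR, in dEx1 against FL (-1.08, SE 0.32, adjusted p = 0.0425). That is 20% of the 5, close to the 22% called over all genes.

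Many members are best known from leukocytes, so leukocyte markers stand beside these results. Of 10 markers, 8 were in the table, and CD3E, MS4A1 and NKG7 were at 0 in every SK-N-SH library. The list summed to 225 to 322 CPM with vector, 423 to 540 CPM with FL and 81.1 to 96.2 CPM with dEx1. Nearly all of this was CD68, a lysosomal protein gene: the other 7 markers summed to 1.96 to 4.44 CPM with vector, 2.59 to 4.29 CPM with FL and 1.34 to 4.05 CPM with dEx1, and PTPRC, the defining marker CD45, to at most 1.09 CPM. The part of other cells in the results was not tested, and fewer expressing cells cannot be told apart from less RNA per cell in bulk libraries.

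In BON-1, no member passed in any comparison. FL against vector called 0 of 26 tested members (0.00671% of all genes), dEx1 against vector 0 of 26 (0.0134%) and dEx1 against FL 0 of 26 (0%), with 1, 3 and 1 members at an unadjusted p under 0.05 in edgeR and 0, 0 and 1 called by DESeq2. The medians were -0.08, -0.13 and -0.09, against -0.02, -0.02 and 0.00 over all genes. The 6 members not tested were CD40, TNFRSF13B, TNFRSF17, TNFRSF4, TNFSF14 and TNFSF8. LTB, the membrane partner of lymphotoxin alpha, had the smallest unadjusted p: it read 1.19, 0.909 and 2.2 CPM with vector, 0.989, 4.07 and 8.28 CPM with FL and 0.175, 0.223 and 0.762 CPM with dEx1. Every dEx1 library lay below every vector and FL library, with a fold change of -3.52 between dEx1 and FL (SE 0.85, adjusted p = 1.00 in edgeR). DESeq2 gave an adjusted p of 0.0147, and over 15 alternatives it ran from 0.0147 to 1. TNFSF10 read 2.36, 1.65 and 4.59 CPM with dEx1 against 3.63, 1.88 and 5.37 CPM with vector (-0.34, 95% interval -1.70 to 1.02; 0.09 without vector replicate 3). TNFRSF14 read 69.9, 29 and 30.3 CPM with vector and 22.5, 26.4 and 24.7 CPM with dEx1 (-0.80, SE 0.32, adjusted p = 0.916), with the highest value in vector replicate 1.

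In BON-1, members also split by replicate number. In 9 of 26 tested members, all 3 libraries numbered 3 lay above the 6 others, and none lay below. Over all genes tested, 21.4% did not overlap, counted in both directions together. The share of all genes lying above was not counted separately. They included the receptors TNFRSF21 (349 to 378 CPM against 152 to 200 CPM), TNFRSF12A (196 to 246 CPM against 85.9 to 131 CPM), TNFRSF11A (23.3 to 23.9 CPM against 10.9 to 13.2 CPM) and TNFRSF1B (5.37 to 8.37 CPM against 2.29 to 4.07 CPM). The ligands TNFSF10 and TNFSF11, the decoy TNFRSF11B, TNFRSF1A and TNFRSF9 made up the 9. In SK-N-SH only TNFRSF10B, 1 of 26, split in this way (323 to 349 CPM in the libraries numbered 3 against 371 to 469 CPM; 12% of all genes).

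In QGP-1, 19 members were tested and none passed: 0 of 19 for FL against vector (0.0275% of all genes), 0 of 19 for dEx1 against vector (0.0207%) and 0 of 19 for dEx1 against FL (0.0138%), with 2, 1 and 0 members at an unadjusted p under 0.05 in edgeR and 0 called by DESeq2. The medians were -0.14, -0.14 and 0.04 against 0.01, 0.00 and 0.00 over all genes. The 13 members not tested stayed at or below 0.53 CPM. TNFRSF18 (GITR) had the smallest unadjusted p, at 0.481, 0.299 and 0.0509 CPM with vector, 0.893, 0.916 and 0.703 CPM with FL and 1.03, 0.949 and 0.674 CPM with dEx1. Both MAML3 groups lay above vector without overlap, at 1.60 (SE 0.64, adjusted p = 0.937) for FL and 1.69 (SE 0.64, adjusted p = 1.00) for dEx1. TNFSF10 read 9.66, 18.4 and 18.6 CPM with vector, 7.85, 7.76 and 18.6 CPM with FL and 8.2, 9.47 and 20.2 CPM with dEx1, a fold change of -0.29 for dEx1 (95% interval -1.33 to 0.75; 0.03 with a term for the 2 library clusters).

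The 2 library clusters of QGP-1 separated 9 of 19 tested members (39.5% of all genes tested), as a description, since the clusters came from these libraries' own expression. Higher in cluster 2 were TNFSF10 (18.4 to 20.2 CPM against 7.76 to 9.66 CPM), TNFRSF11B (107 to 113 CPM against 48.8 to 64.1 CPM), TNFRSF19 (70.6 to 81.3 CPM against 38.3 to 44.9 CPM), TNFRSF11A (13.4 to 15.6 CPM against 7.78 to 9.38 CPM), TNFSF9 and TNFSF12. Higher in cluster 1 were TNFSF15 (98.1 to 129 CPM against 67.2 to 70.2 CPM), TNFRSF21 (91.3 to 101 CPM against 74.4 to 79.9 CPM) and TNFRSF6B. Each cluster held libraries of all 3 groups, and the vector group had 1 library in cluster 1 and 2 in cluster 2. With a term for the cluster, 0 members passed in each QGP-1 comparison.

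**Figure D4:**
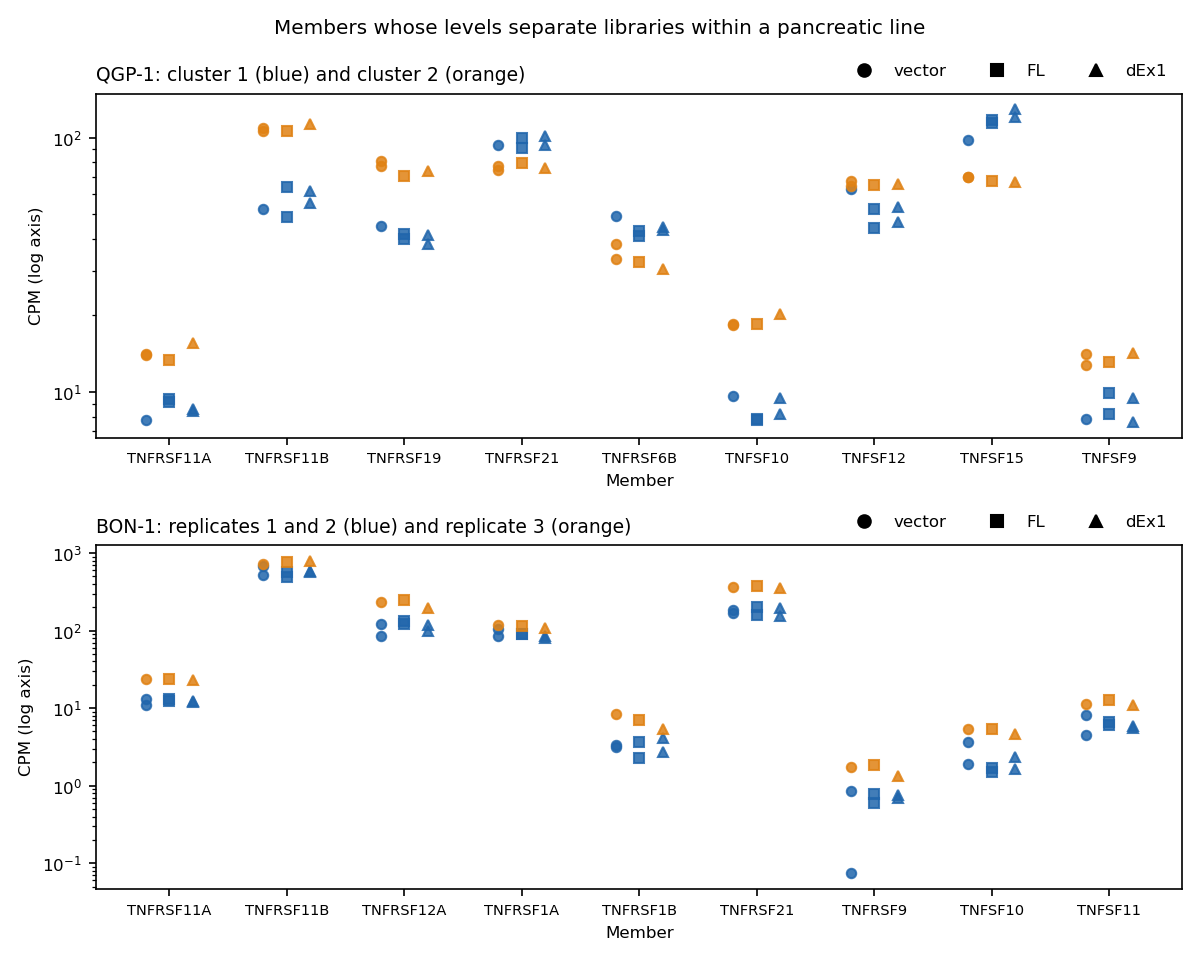
Points are CPM of single libraries on a log axis, with the marker giving the construct; the upper panel shows the 9 QGP-1 members whose 2 library clusters do not overlap, the lower panel the 9 BON-1 members higher in replicate 3. The colours do not overlap in any gene shown, and each colour holds vector, FL and dEx1 libraries. The widest spread within a colour among the BON-1 genes is that of TNFRSF9, from 0.0738 to 0.859 CPM in replicates 1 and 2.

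A single model of all 27 libraries tested whether a construct acted differently in SK-N-SH than on average in the pancreatic lines. For FL, 0 of 29 members passed (0.373% of all genes; 2 at an unadjusted p under 0.05 in edgeR, and 1, TNFRSF11B, called by DESeq2). For dEx1, 2 of 29 passed, both lower (0.883% of all genes in either direction, 0.782% lower). TNFSF10 differed by -5.05 (SE 0.71, adjusted p = 0.000764), and every SK-N-SH dEx1 library lay below every other TNFSF10 value of the 27 libraries. TNFRSF14 passed with an adjusted p of 0.00559 in edgeR, on 3 dEx1 libraries at 0, so the size of its difference was not measured. Within SK-N-SH, the floor bounds its fall with dEx1 against vector only at 2.71-fold or more. For TNFRSF1B the difference was -2.04 (SE 1.08, adjusted p = 0.476), for TNFSF15 -1.63 (SE 0.94, adjusted p = 0.535) and for TNFSF13B -2.66 (SE 1.11, adjusted p = 0.322), so a difference between lines was not shown for these genes. The direction itself turned for TNFRSF1B without QGP-1 dEx1 replicate 1 (0.18) and for TNFSF15 without BON-1 dEx1 replicate 3 (1.91). Each omission left that dEx1 group at 0 in every remaining library, so these turned values are without meaning. Vector means were near or under the floor there, at 0.0305 CPM for TNFRSF1B in QGP-1 and 0.154 CPM for TNFSF15 in BON-1. For 5 of the 29 (TNFRSF8, TNFRSF9, TNFSF8, TNFSF11 and TNFSF14) groups at 0 left no estimate.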

How the data were processed

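RNA from 27 libraries was measured by mRNA sequencing. Per the submitters' processing notes, reads were trimmed with Trimmomatic, aligned to hg19 with HISAT2 and quantified with StringTie, and the versions, annotation and strand of counting are not given in the sources used here. The deposited values are estimated counts per gene, written as whole numbers by the authors, and what 1 sequenced fragment is worth is not known (low values heap at 5 units). Of 23234 rows, 4 repeated symbols were dropped.

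The 9 libraries of each line were fitted with edgeR 4.0.16 (R 4.3.3): filterByExpr, TMM scaling, the quasi-likelihood F test and Benjamini-Hochberg adjustment over all genes tested, at 0.05. Vector libraries of the 3 lines shared 1 fit, and differences between lines came from 1 model of 27 libraries. CPM used TMM factors of all 27. Exon lengths and hg19 positions came from GENCODE v44lift37. DESeq2 1.42.0, other scaling, no filter, the replicate block, omitted libraries, a term for the SK-N-SH libraries numbered 3 and a term for the QGP-1 clusters were alternatives, the last 2 added after seeing the data. Same-numbered libraries deviated together (every correlation of deviations over 0.1) in the 3 BON-1 comparisons and in QGP-1 dEx1 against FL, which the data and not the labels show.

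In simulated data, the fit recovered 11.9%, 62.7% and 81.8% of genes changed 1.5-, 2- and 4-fold for FL against vector in SK-N-SH, 0%, 28.4% and 89.4% in BON-1, and 2.99%, 38.8% and 77.3% in QGP-1. Changes were planted only in genes with a mean above 1 CPM, so these rates do not cover members below that level. Each line had a single draw, with every library drawn independently. The simulated libraries thus held no shared shifts such as the QGP-1 clusters, and the rates may not carry over to the real libraries. The members, the gene lists and the naming rule (members that passed within a line or were highest in a line, and up to 4 passing genes of each other list) were chosen with earlier results of these data known.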

Additional observations from a re-analysis of the deposited data

Results flagged for a closer look

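Both results concern the dEx1 effect, which differed between SK-N-SH and the mean of the pancreatic lines by the interaction term of the model of all 27 libraries. For TNFSF10 the difference was -5.05 on the log2 scale (edgeR adjusted p = 0.000764): dEx1 libraries of SK-N-SH held 0.312 to 0.644 CPM against 14.9 to 24.7 CPM with vector, while the within-line fold changes were -0.34 in BON-1 and -0.29 in QGP-1. For TNFRSF14 the fitted difference was -7.73 (edgeR adjusted p = 0.00559); it depends on the prior count because all 3 SK-N-SH dEx1 libraries were at 0, and the within-line fold changes were -0.80 in BON-1 and -0.64 in QGP-1. The vector level of TNFRSF14 in SK-N-SH was 0.449 to 0.496 CPM, near the floor of about 0.172 CPM. That floor bounds its fall within SK-N-SH at 2.71-fold or more, and no bound was computed for the difference between lines.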

How the results depend on the processing

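No called member changed direction under the alternatives run, whereas some values that did not pass turned. Among them were the dEx1 difference between lines of TNFRSF1B and TNFSF15, and dEx1 against vector of TNFSF10 in BON-1 and in QGP-1, each under 1 alternative. For TNFRSF1B and TNFSF15 that alternative left a dEx1 group at 0. Of 22 calls of members within lines or in the difference between lines, 14 held under every alternative, as did 54 of 59 calls between vector groups. For SK-N-SH FL against vector, the members called went from 0 to 1 with DESeq2, 1 with the replicate block, 3 without the libraries numbered 3 and 2 with a term for them; leaving out single libraries gave 0 to 1. For SK-N-SH dEx1 against vector, they went from 7 to 13 with DESeq2, 4 with only the 6 libraries compared, 14 without the libraries numbered 3 and 11 with a term for them; single omissions gave 2 to 9, and the replicate block gave 10. For dEx1 against FL in SK-N-SH, single omissions gave 10 to 13 in place of 13, the replicate block and DESeq2 15 each, and a term for the libraries numbered 3 gave 18. In BON-1 dEx1 against FL, DESeq2 called 1 in place of 0. For the FL effect in SK-N-SH minus the pancreatic mean, DESeq2 and the replicate block each called 1 in place of 0; for the dEx1 effect both called 4 in place of 2, and single omissions gave 2 to 3. Between vector groups, single omissions gave 20 to 23 for BON-1 against SK-N-SH, 17 to 18 for QGP-1 against SK-N-SH and 17 to 19 for QGP-1 against BON-1. In BON-1 and QGP-1 single omissions gave 0 in each comparison. The cause of these changes was not tested. Where the numbers paired the libraries (BON-1, and QGP-1 dEx1 against FL), the replicate block changed no call. In SK-N-SH the pairing check failed: correlations ran from 0.0478 to 0.461, and only those of replicate 1 lay under the set limit of 0.1. In every line, BON-1 included, all libraries correlated best with their own number only in dEx1 against FL. Members below about 0.2 CPM lie under the floor of 15 units, where a difference was not detectable at this depth.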

Other observations

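LTBR, the receptor of the lymphotoxin heterotrimer that includes LTB, was singled out after its values were seen. It is listed at 0 in 8 of the 9 SK-N-SH libraries and at 0.0322 CPM in dEx1 replicate 2, against 229 to 411 CPM in the BON-1 libraries and 138 to 185 CPM in the QGP-1 libraries.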
